A study of Arabidopsis thaliana with 4 samples.

Results

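The 47 genes described here belong to the WRKY family of plant transcription factors in Arabidopsis thaliana. They were taken by gene identifier from a table of 37336 genes, in the order of their WRKY numbers from *WRKY1* to *WRKY75*. The rule used no measured value, but earlier results of these data were known when the family was chosen. The annotation names 72 WRKY genes. Of the 25 others, 3 are fusions with an immune receptor and the other 22 serve as a comparison below.

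Transcripts were measured by mRNA sequencing in whole seedlings, 6 days old and grown in vitro under long days, of wild-type Col-0 and of the *s2lb-2* mutant, with 2 libraries per genotype. *S2Lb* is a homolog of yeast Swd2, a subunit of the COMPASS complexes that trimethylate lysine 4 of histone H3. The *s2lb-2* line carries an insertion allele from the Nossen accession that was brought into Col-0 by repeated backcrosses, and each library pools several seedlings. The replicates came from different seed batches, and the sources give no treatment for either genotype. A genotype label of the *s2lb-2* samples reads pSDG2:myc-SDG2, whereas their titles read s2lb. The normalised read count of *S2Lb* was 1337 and 1613 in wild type and 80.8 and 67.2 in *s2lb-2* (log2 fold change -4.30, SE 0.166, limma adjusted p = 0.00620), so the titles were followed.

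The libraries held from 34325097 to 39114300 reads on genes. Of these genes, 23723 with a mean normalised count of at least 1 were tested, and 29 of them passed an adjusted p of 0.01 in limma. This number was 0 when any of the 4 libraries was left out. All 5 shoot and 8 root markers were detected in each genotype, and none of them passed. Without overlap, 3 root markers were higher in *s2lb-2* (37.5%, against 24.8% of all genes tested) and 4 lower (50%, against 24.7%). Of the shoot markers, 2 were higher (40%) and 2 lower (40%). Whether these shares differ from those of all genes was not tested. The summed count of the root markers was 89695 and 79030 in wild type and 65025 and 63065 in *s2lb-2*, nearly all of it *PYK10*, and without *PYK10* the sums overlapped (3608 and 2825 against 3274 and 3336). The shoot sum, nearly all *RBCS1A* and *CAB1*, was 1485780 and 1468040 in wild type and 1299200 and 1187740 in *s2lb-2*. Both flower markers were rarely read and higher in *s2lb-2* without overlap, as were 24.8% of all genes tested, and neither passed. *AG* had 5.25 and 1.86 in wild type and 11.8 and 8.27 in *s2lb-2*. *AP3* had 8.40 and 3.72 in wild type and 9.85 and 9.31 in *s2lb-2*. The part of tissue proportions in the results below was not tested. As these are bulk samples, fewer cells of a type and less RNA per cell cannot be told apart.

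WRKY proteins bind DNA through a domain of a conserved heptapeptide, WRKYGQK in most members, followed by a zinc finger. Their binding site, the W box, has the core TTGAC and occurs in front of many defence genes, including genes of WRKY factors themselves. The family is best known for immunity to bacteria and fungi, where many members are induced within minutes of pathogen perception, and also acts in leaf senescence, phosphate supply, seed and trichome development. Group I proteins carry a pair of WRKY domains, group II proteins a single one with subgroups IIa to IIe, and group III proteins a different zinc finger.

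The codons of the heptapeptide were looked up in the coding sequence of every member, since they define the family. Each of the 10 group I genes held 2 copies and each of the other 37 genes held 1. *WRKY50* and *WRKY51*, a related pair of group IIc, were the exceptions in sequence, with a lysine codon where all other members have a glutamine codon. The codons of *WRKY33* (both domains), *WRKY40*, *WRKY50* and *WRKY51* are given 5′ to 3′ with the sixth codon in capitals, from the TAIR10.1 genome of RefSeq.
WRKY33 first domain, chr2:16109358-16109378, forward strand: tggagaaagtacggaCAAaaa
WRKY33 second domain, chr2:16109982-16110002, forward strand: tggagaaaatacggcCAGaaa
WRKY40, chr1:30384789-30384809, forward strand: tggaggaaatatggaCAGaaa
WRKY50, chr5:9147579-9147599, reverse strand: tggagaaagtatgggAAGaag
WRKY51, chr5:25908864-25908884, forward strand: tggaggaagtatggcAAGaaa

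The 250 bases before each annotated gene start were searched for the W box core TTGAC on either strand (GTCAA on the other strand, with no overlap between matches). At least 1 core was found before 26 of the 47 members (55.3%) and before 45.2% of the 22078 protein-coding genes tested. At least 2 were found before 13 members (27.7%) and 14.3% of the tested genes, and at least 3 before 6 members (12.8%) and 3.42% of them. *WRKY29* and *WRKY32* held 4 cores each, and *WRKY11*, *WRKY12*, *WRKY30* and *WRKY45* held 3. A match only says that these letters occur in the window.

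The windows of 5 members follow, with each core in capitals. *WRKY33*, *WRKY40*, *WRKY46*, *WRKY53* and *WRKY70* are shown because they differed more than 2-fold between the libraries of each genotype, as described further on. Each sequence ends at the base before the gene start.
WRKY33, chr2:16107985-16108234, forward strand: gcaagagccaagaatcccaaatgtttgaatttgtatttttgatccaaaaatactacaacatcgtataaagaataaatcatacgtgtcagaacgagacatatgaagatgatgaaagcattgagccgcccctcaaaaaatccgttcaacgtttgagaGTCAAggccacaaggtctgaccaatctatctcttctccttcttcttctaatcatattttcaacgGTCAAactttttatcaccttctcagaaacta
WRKY40, chr1:30383311-30383560, forward strand: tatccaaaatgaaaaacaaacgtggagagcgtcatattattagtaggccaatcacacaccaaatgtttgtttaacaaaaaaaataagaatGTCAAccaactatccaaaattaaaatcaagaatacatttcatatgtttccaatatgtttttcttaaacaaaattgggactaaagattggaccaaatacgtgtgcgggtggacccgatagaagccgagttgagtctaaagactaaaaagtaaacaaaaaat
WRKY46, chr2:19044956-19045205, reverse strand: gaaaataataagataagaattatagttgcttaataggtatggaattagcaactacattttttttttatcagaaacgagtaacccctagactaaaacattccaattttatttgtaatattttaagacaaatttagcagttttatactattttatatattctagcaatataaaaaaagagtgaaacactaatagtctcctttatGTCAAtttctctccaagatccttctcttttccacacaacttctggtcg
WRKY53, chr4:12393983-12394232, reverse strand: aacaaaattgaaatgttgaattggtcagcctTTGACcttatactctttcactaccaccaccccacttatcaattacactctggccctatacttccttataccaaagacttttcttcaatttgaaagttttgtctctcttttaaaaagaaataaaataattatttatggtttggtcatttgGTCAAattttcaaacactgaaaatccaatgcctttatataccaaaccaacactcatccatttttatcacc
WRKY70, chr3:20910624-20910873, reverse strand: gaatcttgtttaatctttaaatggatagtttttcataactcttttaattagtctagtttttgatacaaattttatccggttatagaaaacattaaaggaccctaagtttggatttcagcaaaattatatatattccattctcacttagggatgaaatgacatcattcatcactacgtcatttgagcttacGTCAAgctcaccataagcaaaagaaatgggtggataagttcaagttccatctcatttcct
The window of *WRKY33* held 2 cores, which begin 95 and 31 bases before the gene start, and that of *WRKY53* held 2, at 219 and 70 bases. *WRKY40*, *WRKY46* and *WRKY70* held 1 each, at 160, 48 and 60 bases.

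To compare levels between genes, reads were divided by exon length and scaled to the same total in every library (TPM). The mean level was at least 10 TPM for 17 members, from 1 to 10 TPM for 22, and under 1 TPM for 8. Summed over the family, the level was 507 and 400 TPM in wild type and 466 and 395 TPM in *s2lb-2*. In both genotypes replicate 1 was the higher library, and the genotypes overlapped.

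Groups IId and I supplied most WRKY transcripts, with 35.5% and 27.6% of the family's mean TPM. Group IId proteins carry a calmodulin-binding stretch, and its 6 genes ranged from 15.4 to 37.8 TPM. Group IIe held 15.1%, group IIb 7.57%, group IIa 5.60%, group IIc 5.16% and group III 3.37%. The 8 genes of group III, many of them induced by pathogens, ranged from 0.00887 to 7.43 TPM.

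The most abundant member was *WRKY15* (AT2G23320), a gene linked to the oxidative stress response, with 36.0 and 37.3 TPM in wild type and 48.4 and 29.3 TPM in *s2lb-2*. *WRKY11* (AT4G31550), which restrains resistance to Pseudomonas syringae together with *WRKY17*, followed with 51.8 and 29.8 TPM in wild type and 39.3 and 24.4 TPM in *s2lb-2*. *WRKY17* (AT2G24570) had 29.2 and 22.0 TPM in wild type and 31.0 and 25.8 TPM in *s2lb-2*. These 3 genes overlapped in their libraries, so their order is not fixed by the data.

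*WRKY65* (AT1G29280), of group IIe, had 29.2 and 21.8 TPM in wild type and 23.5 and 28.6 TPM in *s2lb-2*. *WRKY33* (AT2G38470) had 44.7 and 10.1 TPM in wild type and 28.9 and 13.3 TPM in *s2lb-2*. Its wild-type libraries thus lay further apart than the means of the 10 most abundant members, which ran from 17.0 TPM (*WRKY22*) to 37.8 TPM. At the other end, *WRKY41* was read once, in *s2lb-2* replicate 1, and was the only member below the minimum for testing.

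**Figure D1:**
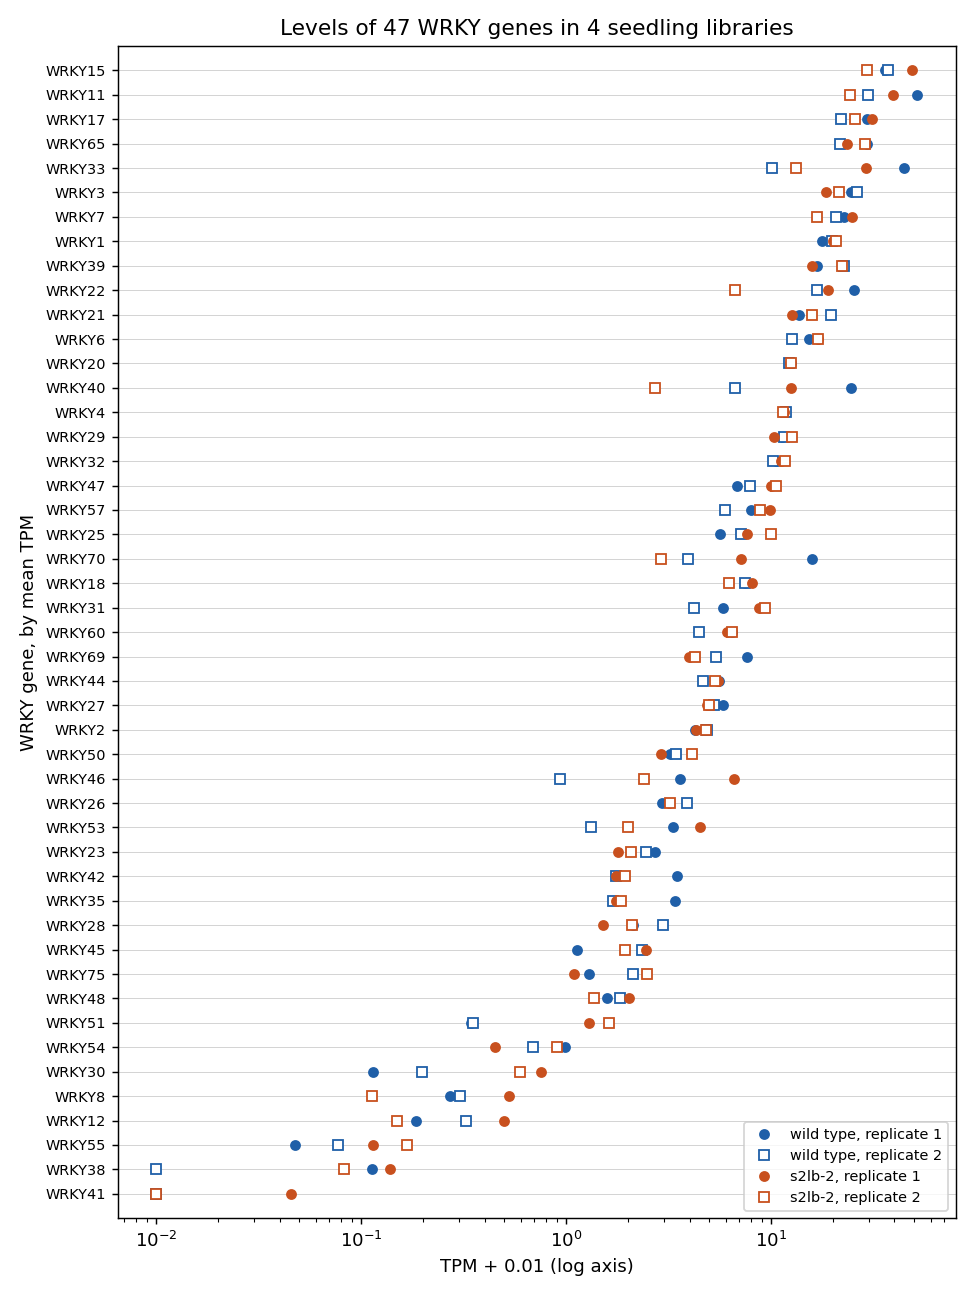
Level of each of the 47 WRKY genes in each of the 4 libraries, in TPM plus 0.01 on a log axis, ordered by the mean. Circles are replicate 1 and squares replicate 2, blue is wild type and red is *s2lb-2*. *WRKY15* leads with a mean of 37.8 TPM, and the circles of *WRKY33*, *WRKY40*, *WRKY46*, *WRKY53* and *WRKY70* lie to the right of their squares in both genotypes.

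**Figure D2:**
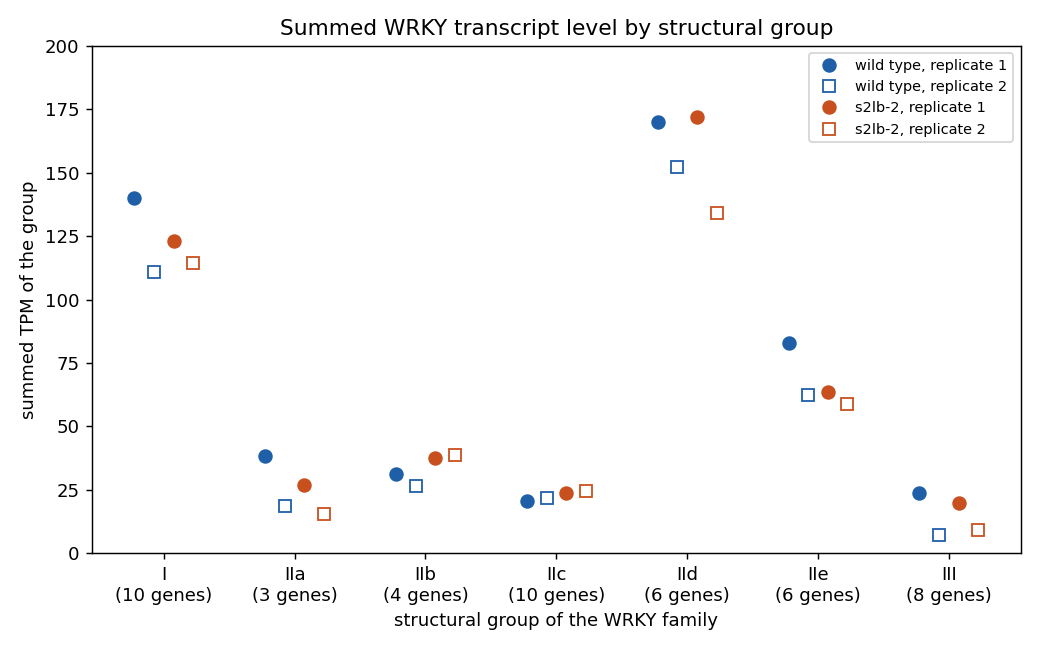
Summed TPM of the members of each structural group in each library, with the number of genes in brackets. Group IId holds from 134 to 172 TPM and group III from 7.12 to 23.9 TPM. In group IIb both *s2lb-2* libraries (37.4 and 38.7 TPM) lie above both wild-type libraries (31.3 and 26.5 TPM). The same holds in group IIc (23.8 and 24.7 against 20.7 and 21.9 TPM), and all other groups overlap. Among single genes, 24.8% of all genes tested were higher in this way. WRKY genes that are not members are left out of these sums.

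The comparison of *s2lb-2* with wild type asked which genes depend on *S2Lb* in seedlings. None of the 46 tested WRKY genes passed an adjusted p of 0.01 in limma, where 0.122% of all genes tested passed (0.0632% higher and 0.059% lower in *s2lb-2*). The number was also 0 with the quasi-likelihood test of edgeR (0.177% of all genes) and with DESeq2 (3.41%). At an adjusted p of 0.05 it was 0 in limma (1.60%), 0 in edgeR (1.74%) and 1 in DESeq2 (5.62%), which was *WRKY31* with an adjusted p of 0.020.

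At an unadjusted limma p under 0.05 stood 6 members (13.0%), against 17.4% of all genes tested. The libraries of the genotypes did not overlap for 14 members (30.4%), against 49.5% of all genes. Of these, 9 (19.6% of the members) were higher in both *s2lb-2* libraries, against 24.8% of all genes. The other 5 (10.9%) were lower in both, against 24.7% of all genes. Whether these shares differ from those of all genes was not tested.

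The median log2 fold change over the 46 members was -0.03, beside -0.00 over all genes tested, with quartiles of -0.23 and 0.25. The values ran from -1.15 for *WRKY40* to 1.96 for *WRKY30*. An absolute log2 fold change over 1 was found for 4 members (8.70%), and for 8.99% of all genes. The median SE was 0.225 for the members and 0.169 for all genes, so the family was measured with a larger error than the typical gene.

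**Figure D3:**
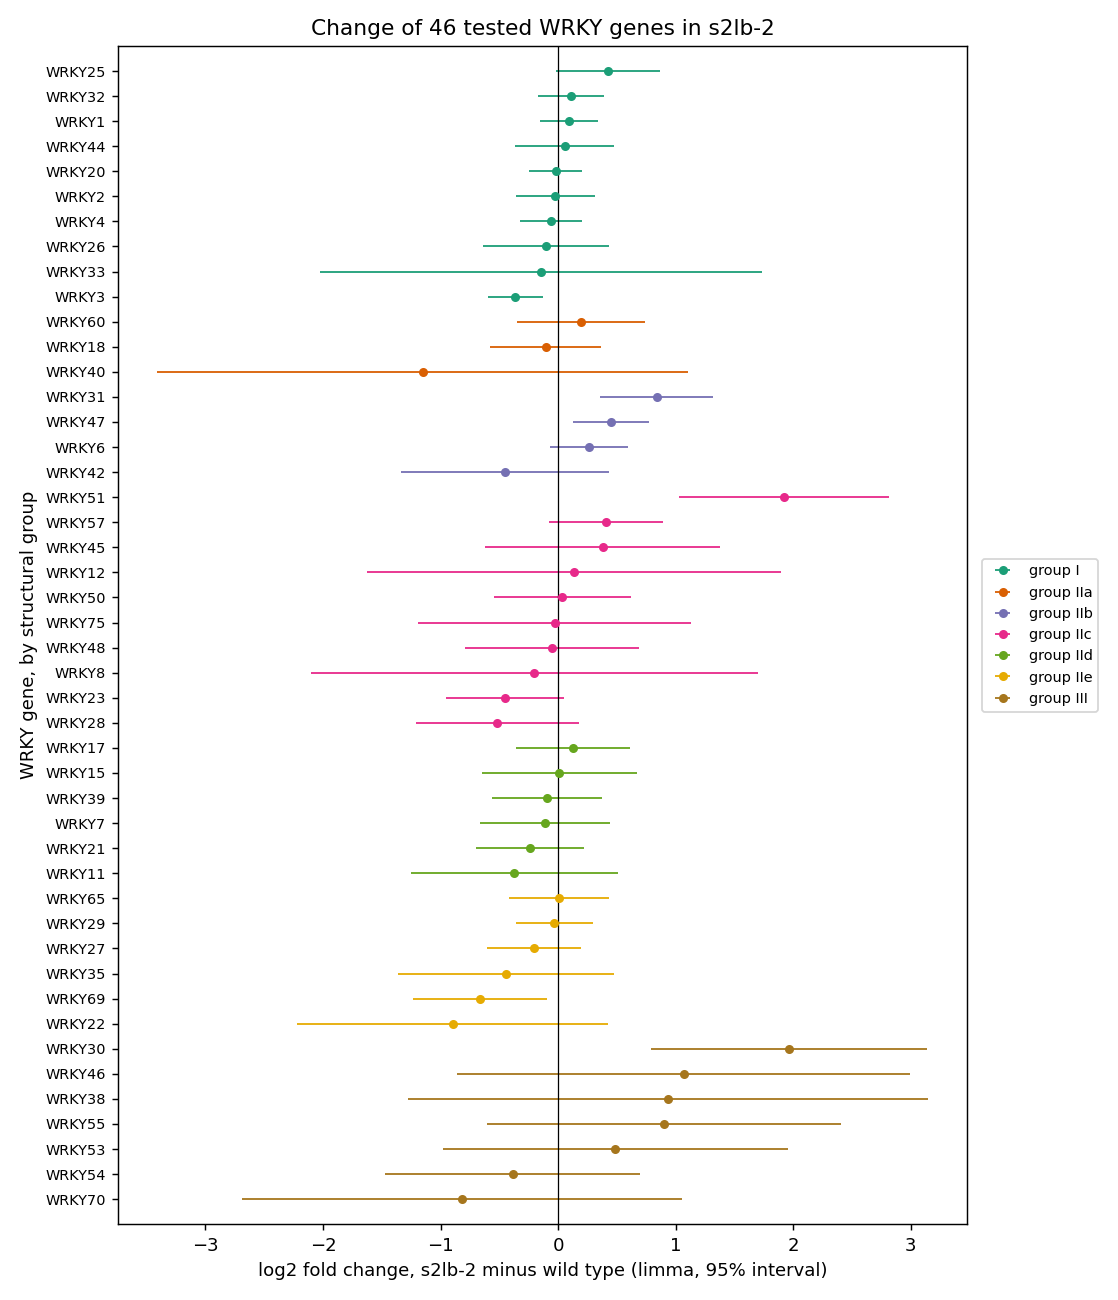
Log2 fold change of each of the 46 tested WRKY genes, *s2lb-2* minus wild type, with its 95% interval from limma, arranged by structural group. The interval lies above 0 for *WRKY30*, *WRKY31*, *WRKY47* and *WRKY51* and below 0 for *WRKY3* and *WRKY69*, and it is widest for genes such as *WRKY40* (-3.41 to 1.11).

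Group IIb, whose members *WRKY6* and *WRKY42* repress the phosphate exporter gene *PHO1*, holds 4 of the genes. For 3 of them both *s2lb-2* libraries lay above both wild-type libraries, as for 24.8% of all genes tested. The median log2 fold change of these 4 members was 0.36. WRKY genes that are not members were not assigned to groups, so these values do not describe group IIb as a whole. *WRKY31* (AT4G22070), a close relative of *WRKY6* on chromosome 4 (11691172 to 11694590, reverse strand, TAIR10.1), had a normalised count of 296 and 210 in wild type and of 448 and 444 in *s2lb-2*. The mutant mean was 1.76 times that of wild type (log2 fold change 0.84, SE 0.191, limma adjusted p = 0.118).

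*WRKY47* (AT4G01720) had 310 and 354 in wild type and 459 and 447 in *s2lb-2* (log2 fold change 0.45, SE 0.129, limma adjusted p = 0.173). *WRKY6* (AT1G62300), which also acts in senescence, had 825 and 671 in wild type and 928 and 857 in *s2lb-2*, with a log2 fold change of 0.26 (SE 0.133). Both genes were thus higher in each mutant library, 1.37 and 1.19 times in the mean. The remaining gene *WRKY42* had 195 and 95.7 in wild type and 98.5 and 101 in *s2lb-2* (log2 fold change -0.45, SE 0.355), so its difference lay in the first wild-type library.

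Higher values without overlap were found in group I for *WRKY25* and *WRKY32*. *WRKY25* (AT2G30250), which acts in heat tolerance with *WRKY26* and *WRKY33*, had 234 and 291 in wild type and 319 and 385 in *s2lb-2* (log2 fold change 0.42, SE 0.176). *WRKY32* (AT4G30935) had 432 and 411 in wild type and 462 and 447 in *s2lb-2*, a log2 fold change of 0.11 (SE 0.114). *WRKY26* (AT5G07100) had 107 and 140 in wild type and 117 and 111 in *s2lb-2*, within the wild-type range.

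*WRKY57* (AT1G69310), a group IIc gene known from drought tolerance and jasmonate-induced senescence, had 385 and 281 in wild type and 479 and 399 in *s2lb-2* (log2 fold change 0.41, SE 0.195). The largest relative differences of the family were in rarely read genes. These genes fell under the mean count of 20 used for naming and were chosen after their values were seen. *WRKY51* (AT5G64810), which with *WRKY50* represses jasmonate signalling when oleic acid is low, had 7.35 and 7.43 in wild type and 28.6 and 33.1 in *s2lb-2*.

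The mutant mean of *WRKY51* was 4.17 times that of wild type (log2 fold change 1.92, SE 0.357, limma adjusted p = 0.081). *WRKY51* lies on chromosome 5 (25908247 to 25909881), 556 kb from *S2Lb*, and is the only member within 1 Mb of it. The *s2lb-2* allele came from Nossen, and the part of a linked Nossen segment in this value was not tested. Its partner *WRKY50* had 80.8 and 84.5 in wild type and 73.9 and 97.2 in *s2lb-2*, where the genotypes overlapped.

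*WRKY30* (AT5G24110), a group III gene induced by oxidative stress, had 3.15 and 5.57 in wild type and 22.7 and 16.5 in *s2lb-2* (log2 fold change 1.96, SE 0.470, limma adjusted p = 0.125). *WRKY55* (AT2G40740), also of group III, had 1.05 and 1.86 in wild type and 2.95 and 4.14 in *s2lb-2*. Both were higher in each mutant library, at levels of only a few reads in wild type.

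Lower values without overlap were found for 5 members. *WRKY3* (AT2G03340), which acts with *WRKY4* in resistance to necrotrophic fungi, had 1254 and 1318 in wild type and 965 and 1034 in *s2lb-2*. Its log2 fold change was -0.36 (SE 0.093, limma adjusted p = 0.141), with a 95% interval from -0.60 to -0.13. *WRKY4* itself had 707 and 699 in wild type and 707 and 642 in *s2lb-2*, an overlap.

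In group IIe, *WRKY69* (AT3G58710) had 224 and 154 in wild type and 117 and 116 in *s2lb-2* (log2 fold change -0.67, SE 0.229, limma adjusted p = 0.231). *WRKY27* (AT5G52830), which promotes the symptoms of bacterial wilt, had 215 and 190 in wild type and 180 and 171 in *s2lb-2*, a log2 fold change of -0.21 (SE 0.160). Both mutant libraries of each gene lay under both wild-type libraries, but the gap was smaller than the spread between the wild-type libraries of the gene. The gap was also smaller than that spread for *WRKY6*, *WRKY25*, *WRKY28*, *WRKY32* and *WRKY57*.

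In group IIc, *WRKY28* (AT4G18170), an activator of the salicylic acid synthesis gene *ICS1*, had 71.4 and 98.5 in wild type and 51.2 and 66.2 in *s2lb-2* (log2 fold change -0.52, SE 0.277). *WRKY23* (AT2G47260), which acts in root development downstream of auxin, had 121 and 107 in wild type and 79.8 and 85.8 in *s2lb-2* (log2 fold change -0.45, SE 0.200). *WRKY23* was the steadier of the pair between libraries of a genotype.

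Several of the immune regulators differed more between libraries of the same genotype than between genotypes. In 22 of the 46 tested members (47.8%) replicate 1 was above replicate 2 in both genotypes, against 29.4% of all genes tested. For 5 of them (10.9%), *WRKY33*, *WRKY40*, *WRKY46*, *WRKY53* and *WRKY70*, the ratio was over 2 in both genotypes, against 233 of all genes (0.982%). No member was under 1/2 in both, against 318 of all genes (1.34%). Replicate 1 was below replicate 2 in both genotypes for 11 members (23.9%), against 28.2% of all genes. The sources do not state that a replicate number marks a shared seed batch or day.

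*WRKY33*, an activator of camalexin synthesis needed against the fungus Botrytis cinerea, had 2115 and 470 in wild type and 1381 and 587 in *s2lb-2*. Replicate 1 was 4.50 times replicate 2 in wild type and 2.35 times in the mutant. The genotypes overlapped widely, and the log2 fold change was -0.15 with a 95% interval from -2.03 to 1.73.

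*WRKY40* (AT1G80840), which with *WRKY18* and *WRKY60* forms complexes that restrain defence and abscisic acid responses, had 760 and 203 in wild type and 392 and 78.6 in *s2lb-2*. The ratio of the replicates was 3.75 in wild type and 4.99 in *s2lb-2*. In *s2lb-2*, replicate 1 lay between the wild-type libraries and replicate 2 below both. The log2 fold change was -1.15 (SE 0.906, limma adjusted p = 0.568), and it ran from -2.31 without *s2lb-2* replicate 1 to -0.0018 without *s2lb-2* replicate 2.

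The other genes of group IIa did not show such spread. *WRKY18* (AT4G31800) had 354 and 345 in wild type and 384 and 274 in *s2lb-2* (log2 fold change -0.11, SE 0.190). *WRKY60* (AT2G25000) had 237 and 162 in wild type and 227 and 222 in *s2lb-2* (log2 fold change 0.20, SE 0.219). In both genes the genotypes overlapped.

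*WRKY70* (AT3G56400) lies between salicylic acid and jasmonate signalling and delays senescence. It had 541 and 133 in wild type and 247 and 93.1 in *s2lb-2*, with a log2 fold change of -0.82 (SE 0.751, limma adjusted p = 0.629). Its close homolog *WRKY54* had 32.5 and 22.3 in wild type and 14.8 and 27.9 in *s2lb-2*, with replicate 1 above replicate 2 in wild type only.

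*WRKY46* (AT2G46400) acts in basal resistance with *WRKY70* and *WRKY53*. It had 113 and 28.8 in wild type and 209 and 70.3 in *s2lb-2*, with a log2 fold change of 1.07 (SE 0.773, limma adjusted p = 0.536), which ran from 0.097 without wild-type replicate 2 to 2.04 without wild-type replicate 1. *WRKY53* (AT4G23810), a promoter of leaf senescence, had 118 and 45.5 in wild type and 160 and 66.2 in *s2lb-2*, with a log2 fold change of 0.48 (SE 0.588). Replicate 1 was the higher library of both genes in each genotype, and the genotypes overlapped.

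*WRKY22* and *WRKY29* act downstream of the mitogen-activated protein kinase cascade triggered by bacterial flagellin. *WRKY22* (AT4G01250) had 784 and 510 in wild type and 595 and 193 in *s2lb-2* (log2 fold change -0.90, SE 0.530, limma adjusted p = 0.453), and its log2 fold change ran from -1.70 without *s2lb-2* replicate 1 to -0.088 without *s2lb-2* replicate 2. *WRKY29* (AT4G23550) had 367 and 371 in wild type and 339 and 385 in *s2lb-2*, a log2 fold change of -0.03 (SE 0.130). The latter was among the most even members.

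*WRKY11* had 2197 and 1244 in wild type and 1683 and 967 in *s2lb-2* (log2 fold change -0.37, SE 0.353). *WRKY17* had 1049 and 776 in wild type and 1121 and 864 in *s2lb-2* (log2 fold change 0.13, SE 0.194). Both negative regulators were higher in replicate 1 of each genotype, by less than 2-fold.

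A list of 14 genes induced within minutes by touch, wounding or elicitors, such as calcium sensors, zinc finger and ERF factors, moved with these replicates. This list, like those of partners and targets below, was chosen with earlier results of these data known. Of the 14 genes, 13 were higher in replicate 1 in both genotypes and 10 were so by more than 2-fold. Their summed normalised count was 26563 and 13780 in wild type and 18830 and 6625 in *s2lb-2*. None passed an adjusted p of 0.01 in limma, edgeR or DESeq2, and the median log2 fold change was -1.02, from -1.87 for *CML38*, a calmodulin-like gene, to 0.19 for *TCH3*.

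The summed count of 3 seed storage and oil body markers also differed between replicates, with 336 and 32.5 in wild type and 161 and 26.9 in *s2lb-2*. Most of the replicate 1 sums came from *CRA1*, with 301 and 16.7 in wild type and 112 and 19.7 in *s2lb-2*. The oil body marker *OLE1* differed less, with 26.2 and 15.8 in wild type and 12.8 and 6.21 in *s2lb-2*. The part of rapid induction or of seed batch in the spread of the WRKY genes was not tested.

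**Figure D4:**
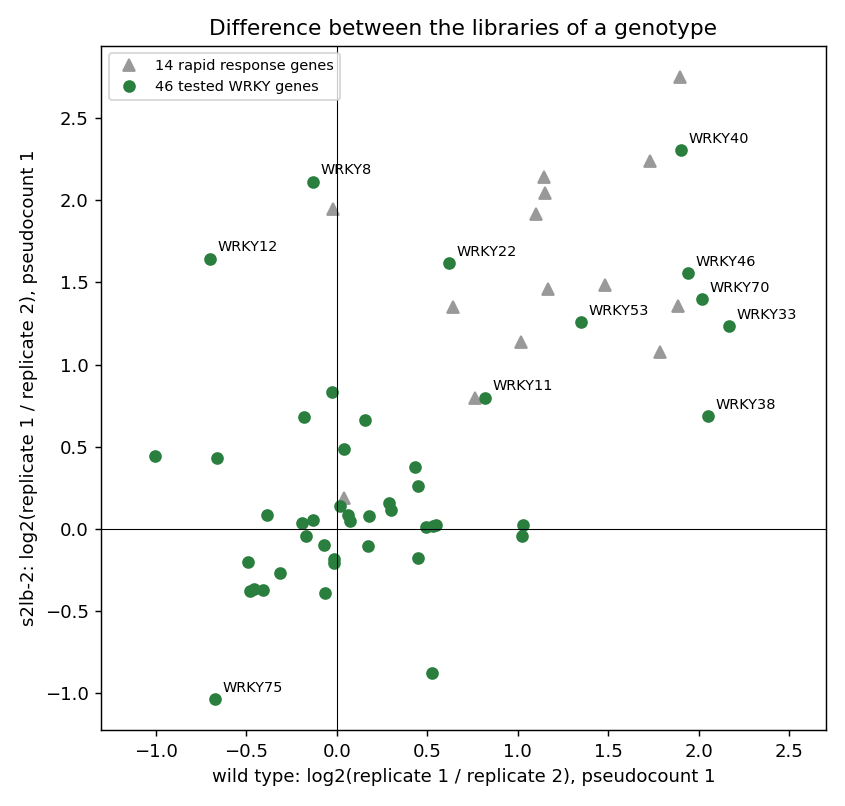
Log2 ratio of replicate 1 to replicate 2, with 1 added to each normalised count, in wild type (x axis) and in *s2lb-2* (y axis). Green points are the 46 tested WRKY genes and grey triangles the 14 rapid response genes. *WRKY33*, *WRKY40*, *WRKY46*, *WRKY53* and *WRKY70* lie in the upper right, among most of the triangles.

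*WRKY45* (AT3G01970), an activator of the phosphate transporter gene *PHT1;1*, had 35.7 and 72.5 in wild type and 77.8 and 56.9 in *s2lb-2* (log2 fold change 0.38, SE 0.400). *WRKY75* (AT5G13080), induced by phosphate starvation and in senescence, had 24.1 and 39.0 in wild type and 20.7 and 43.4 in *s2lb-2* (log2 fold change -0.03, SE 0.466). In *WRKY75* replicate 2 was the higher library in both genotypes, the reverse of *WRKY33*, *WRKY40*, *WRKY46*, *WRKY53* and *WRKY70*.

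*WRKY44* (AT2G37260), known as *TTG2* for its part in trichome and seed coat development, had 253 and 207 in wild type and 251 and 225 in *s2lb-2* (log2 fold change 0.06, SE 0.169). *WRKY15* had 1079 and 1098 in wild type and 1465 and 821 in *s2lb-2* (log2 fold change 0.01, SE 0.265). *WRKY65* had 1061 and 777 in wild type and 859 and 970 in *s2lb-2* (log2 fold change 0.01, SE 0.170). In *WRKY44* and *WRKY65* both mutant libraries lay between the wild-type libraries, and in *WRKY15* the reverse held.

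The members not yet given a log2 fold change overlapped between genotypes or were too low to compare. In groups I and IId, *WRKY1*, *WRKY2*, *WRKY4*, *WRKY7*, *WRKY20*, *WRKY21*, *WRKY26* and *WRKY39* lay between -0.24 (*WRKY21*) and 0.09 (*WRKY1*). The 95% interval of *WRKY20*, from -0.24 to 0.20, was the narrowest of the family. *WRKY35* of group IIe lay at -0.44 (SE 0.367), and *WRKY48* and *WRKY50* of group IIc at -0.05 and 0.04.

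*WRKY8* and *WRKY12* had under 20 normalised counts in every library, with the highest and the lowest value both in *s2lb-2*. *WRKY8* (AT5G46350), which acts in salt tolerance, ran from 3.10 to 16.7, and *WRKY12*, a regulator of pith cell walls, from 3.10 to 11.8. *WRKY38* (AT5G22570), a repressor of basal defence, had 3.15 and 0 in wild type and 3.94 and 2.07 in *s2lb-2*. *WRKY41* (AT4G11070) had 0 and 0 in wild type and 0.985 and 0 in *s2lb-2*.

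The libraries were strand-specific, but the strand on which reads were counted is not given in the sources used here. Overlap with an annotated gene on the opposite strand was found for 9 members, *WRKY1*, *WRKY2*, *WRKY4*, *WRKY29*, *WRKY33*, *WRKY40*, *WRKY41*, *WRKY53* and *WRKY69*. How reads in the shared stretches entered their counts depends on that strand and is not known here. The overlap of *WRKY53* is with AT4G23800, which had a mean of 2116 reads.

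Of the 22 WRKY genes that are not members, 18 were tested and none passed in limma. Without overlap, 5 genes were higher (27.8%, against 24.8% of all genes tested) and 3 lower (16.7%, against 24.7%), and the median log2 fold change was 0.02. The lowest was *WRKY59* at -1.54, with 6.30 and 13.0 in wild type and 2.95 and 2.07 in *s2lb-2*. The highest was *WRKY66*, listed at 0 in wild type and at 2.95 and 3.10 in *s2lb-2*.

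Partners of WRKY factors, the kinases of the *MEKK1* to MPK6 cascades and VQ proteins, were represented by 14 genes. Of these 13 were tested and none passed, with log2 fold changes from -0.29 for *SIB1*, a VQ partner of *WRKY33*, to 0.36 for *MEKK1*. *SIB2* was listed at 0 in every library. The median was 0.00.

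Of 19 genes described as targets of WRKY factors, 16 were tested. None passed an adjusted p of 0.01 in limma or edgeR. In DESeq2 1 of the 16 did so, beside 3.41% of all genes tested. In limma 1 passed 0.05, where 0.674% of all genes tested were higher and 0.923% lower at that threshold. In both cases the gene was *PAD3*, the last enzyme of camalexin synthesis and a target of *WRKY33*. It had 175 and 186 in wild type and 414 and 429 in *s2lb-2* (log2 fold change 1.22, SE 0.133, limma adjusted p = 0.025, DESeq2 adjusted p = 3.81e-07). *PAD3* was thus even between replicates, whereas *WRKY33* was not.

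Without overlap, 6 targets were higher in *s2lb-2* (37.5%, against 24.8% of all genes tested) and 0 were lower (against 24.7%), and the median log2 fold change of the list was 0.25. The highest was *SAG13*, a senescence gene at 0 and 0.929 in wild type and 2.95 and 3.10 in *s2lb-2*. The lowest was *ACS6*, an ethylene synthesis gene also stabilised by kinases MPK3 and MPK6, with 4429 and 1050 in wild type and 2075 and 403 in *s2lb-2*. *ACS6* shared the replicate difference of *WRKY33* and *WRKY40*, 4.22-fold in wild type and 5.15-fold in *s2lb-2*.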

How the data were processed

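Whole seedlings of wild-type Col-0 and *s2lb-2* were profiled by mRNA sequencing, with 2 libraries each. The authors trimmed adapters, mapped reads on TAIR10 with STAR 2.5.4b, counted them per Araport11 gene and divided them by size factors of DESeq2. The deposited signal is this normalised count for 37336 genes, and 0 other columns of values per sample were present. A second table holds the authors' own comparison (fold changes and p-values) and was not used.

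Dividing by the smallest step gave whole reads for 100% of the values (tolerance 1e-06), from 34325097 to 39114300 per library. Exon lengths and sequences came from TAIR10.1 of RefSeq (37051 genes matched, 99.2%), from which TPM were computed.

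The main test was limma 3.58.1 in R 4.3.3 (lmFit, eBayes with a trend) on log2(normalised count + 1), over 23723 genes with a mean of at least 1. The threshold was a Benjamini-Hochberg adjusted p of 0.01 over all genes tested. Fold changes are on this log2 scale, which understates those of low genes. The script was tested on simulated data. Alternatives were edgeR 4.0.16 (quasi-likelihood), DESeq2 1.42.0 and limma-voom on recovered reads, TMM factors, library totals, other filters, pseudocounts of 0.1 and 0.5, a threshold of 0.05, the replicate number as a term, and leaving out each library. Each genotype has 2 libraries, which limits precision, and members with a few reads are limited by depth as well.

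The members and lists were chosen with earlier results of these data known. Values of all libraries are given for members past an adjusted p of 0.05, for the 8 largest rises and 8 largest falls among members with a mean of at least 20 and no overlap between genotypes, for the 5 highest in TPM, and for 17 members with known roles. From each list, genes past an adjusted p of 0.05 and the largest rise and fall are named, and marker lists are given as counts. Members outside this rule are described for completeness.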

Additional observations from a re-analysis of the deposited data

How the results depend on the processing

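No WRKY member passed an adjusted p of 0.01 under any setting with all 4 libraries except the replicate block. The median log2 fold change of the members moved by less than 0.297 throughout, and ran from -0.063 to 0.12 without each library. That limit is the SD of the members' median log2 count between replicates, not a spread of the fold change. The number of genes called over the whole table moved from 29 to 730 with DESeq2, 95 with library totals, 1 with a pseudocount of 0.1 and 379 at an adjusted p of 0.05, and to 0 without any 1 of the 4 libraries. The cause was not tested. Fits without a library assume that the lone library varies like those of the other genotype.

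With the replicate block, 663 genes were called and 1 of them was a member, *WRKY40* (adjusted p = 0.00575, limma), 1 of 46 beside 2.79% of all genes tested. At 0.05 the block called 8 members (*WRKY3*, *WRKY11*, *WRKY22*, *WRKY31*, *WRKY40*, *WRKY46*, *WRKY51* and *WRKY70*), beside 8.65% of all genes. Of the other lists the block called 5 of the 14 rapid response genes and 2 of the 16 tested targets at 0.01 (*PAD3* and *ACS6*), where limma without it called 0. The replicates share only a number, and the deviations of same-numbered libraries correlated across genes with r = 0.178 over all genes tested, 0.407 over genes with a mean above 50, 0.488 over the 46 members and 0.435 over the rapid response genes.

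Of 406 values of the 29 named members under the alternatives, 378 kept their side and direction, 27 changed sign and 1 passed the threshold (*WRKY40*, above). Among the sign changes, *WRKY65* was -0.012 and *WRKY75* was 0.0043 in edgeR, and *WRKY65* was -0.0063 and *WRKY75* was 0.017 in DESeq2. Without each library in turn, the log2 fold change ran from -0.78 to 0.037 for *WRKY11*, from -0.41 to 0.43 for *WRKY15*, from -0.092 to 0.34 for *WRKY17*, from -0.35 to 0.14 for *WRKY18*, from -0.12 to 0.060 for *WRKY29*, from -1.23 to 0.94 for *WRKY33*, from -0.96 to 0.062 for *WRKY42*, from -0.088 to 0.20 for *WRKY44*, from -0.12 to 0.88 for *WRKY45*, from -0.19 to 1.16 for *WRKY53*, from -0.83 to 0.049 for *WRKY54*, from -0.079 to 0.47 for *WRKY60*, from -0.22 to 0.23 for *WRKY65*, from -1.83 to 0.19 for *WRKY70* and from -0.55 to 0.49 for *WRKY75*. The sign held but the value moved by over 1.5 times for others, among them *WRKY22* (from -1.70 to -0.088), *WRKY40* (from -2.31 to -0.0018) and *WRKY46* (from 0.097 to 2.04).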
